A study of Mus musculus with 12 samples.

Results

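The subject is a group of 35 genes that mark the cells of blood and lymph vessels in the heart, 28 of endothelium and 7 of the mural cells that wrap it. They were taken by gene symbol from the count tables, which list 21669 transcript names, and all 35 were present. The libraries came from left ventricular tissue of adult WT mice and of adult mice without *Rpl3l*, which encodes a ribosomal protein made in striated muscle in place of its paralog *Rpl3*. All tissue was lysed in a buffer with cycloheximide, which holds ribosomes on their mRNA. Lysate treated with RNAse I gave ribosome-protected fragments (RPF, footprints), and untreated lysate gave polyadenylated RNA (mRNA) in strand-specific libraries. Each of the 4 groups, WT and Rpl3l-/- (KO) in each assay, had 3 libraries that the series describes as biological replicates. Strain, sex and exact age are not given in the labels, and neither is how the allele was made.

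Endothelial cells line every vessel and meet one another at junctions built from *Cdh5*, *Cldn5*, *Esam* and *Pecam1*. Their identity is kept by ETS and SOX transcription factors, and their growth and survival by the VEGF receptors *Kdr* and *Flt1* and the angiopoietin receptor *Tek*. In the heart, capillaries run beside the cardiomyocytes and supply fatty acids, a task in which *Gpihbp1* carries lipoprotein lipase to the vessel lumen. Pericytes, marked by *Pdgfrb*, *Rgs5* and *Cspg4*, sit on capillaries, and smooth muscle cells, marked by contractile genes such as *Acta2* and *Myh11*, surround larger vessels.

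*Rpl3l* followed the labels in every library. Its mRNA averaged 377 ± 44.4 CPM (counts per 1000000, on library sizes scaled by the trimmed mean of M values, TMM; SD, n = 3) in WT and 44.0 ± 2.91 in KO. Its footprints averaged 229 ± 33.7 CPM in WT and 8.65 ± 4.19 in KO. Total counts were 6635242 to 8459004 per mRNA library, of which 49.8% to 58.2% were mitochondrially encoded, and 3827862 to 7474602 per footprint library, with 2.28% to 5.22% mitochondrial. The 35 vascular genes held 0.108% to 0.147% of the nuclear counts of an mRNA library and 0.479% to 0.578% of those of a footprint library. In mRNA several were near the detection floor of 3 counts per library: *Ets1* was at or under it in 5 of 6 libraries, *Podxl* in 4, *Lyve1* in 3 and *Erg* in 2. No member was at or under it in any footprint library. A filter on low counts kept 30 of the 35 for the genotype test in mRNA, leaving out *Erg*, *Ets1*, *Podxl*, *Lyve1* and *Cnn1*, and kept all 35 in footprints. In such bulk tissue, fewer cells of a type and less RNA per cell cannot be told apart.

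The sequences around the start codon are shown for the 10 genes at the ends of the comparison of footprints with mRNA described further on. They are from the GENCODE M21 transcripts (GRCm38) that the count tables name, with the last 9 bases of the 5′ UTR, the start codon in capitals and 1 base after it. The 5 genes with the highest footprint level relative to mRNA in WT were
Cav1: cgcgccagcATGt
Podxl: agcacaaccATGc
Ets1: ccgggcaccATGa
Aqp1: cctgccagcATGg
Flt1: ttgctcaccATGg
and the 5 with the lowest were
Egfl7: cacttacagATGc
Gpihbp1: tgagccaggATGa
Tagln: tgcctcaacATGg
Tie1: ttccagagtATGg
Ly6a: tctctgaggATGg

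A purine at position -3 (with the A of the start codon as +1) and a G at +4 are the usual marks of a strong start context. *Egfl7* was the member without a purine at -3, which the other 33 of the 34 sequences examined had. In all listed transcripts 17069 of 20141 had one. Both marks were present in 13 of 34 members (38.2%) and in 41.6% of all listed transcripts. The set with high footprint levels held 2 such contexts (*Aqp1* and *Flt1*), and the set with low levels held 3 (*Tagln*, *Tie1* and *Ly6a*). The strong context was thus found at both ends of the ratio.

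Some members resemble other genes closely enough that short reads could fall on either. The coding sequences of 25 of the 35 members shared no window of 28 bases, about the size of a footprint, with any other listed gene. More than 10% of the windows were shared in 3 members: 67.2% in *Ly6c1*, 30.7% in *Ly6a* and 138 of 810 windows in *Egfl7*. *Ly6c1* (chr15:75045013-75048830, minus strand) and *Ly6a* (chr15:74994878-74998031, minus strand) encode small lipid-anchored surface proteins, and their neighbour *Ly6c2* is a near copy. The coding sequences of *Ly6c1* and *Ly6c2* were 97.7% identical, with 9 differences in 396 bases and an identical run of 188 bases. Positions 56 to 115, counted from the A of the start codon and with the differing base in capitals, show how alike they are:
Ly6c1: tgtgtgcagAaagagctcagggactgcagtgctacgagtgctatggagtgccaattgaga
Ly6c2: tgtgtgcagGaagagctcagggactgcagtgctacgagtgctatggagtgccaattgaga
The tables list *Ly6c2* at 0 or 1 count in the mRNA libraries and at 0 to 18 in the footprint libraries, so the counts of *Ly6c1* and *Ly6a* are uncertain between the members of this family. All the shared windows of *Egfl7* were with *Gm20532*, which is listed at 0 in all 12 libraries.

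*Acta2*, the smooth muscle actin, shared 36 of its 1107 coding windows, 3.25%, with other genes, 31 of them with the cytoplasmic actin *Actg1*. Whether reads with mismatches were moved between the actins is not known from the tables and was not tested.

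The levels of the members were compared with one another only per length, as counts per kilobase of the listed transcript scaled to a sum of 1000000 over 21380 nuclear genes. On this scale the highest footprint levels in WT were those of *Acta2*, at 437 ± 115 (SD, n = 3), and *Aqp1*, the water channel of capillaries and red blood cells, at 389 ± 74.5. They did not differ beyond their spread, and both were above the next gene, the caveolae protein *Cav1*, at 194 ± 14.7. Then followed *Cdh5* (VE-cadherin) at 179 ± 19.6 and the TGF-beta co-receptor *Eng* at 174 ± 9.94. The lowest footprint levels were those of *Myh11*, the smooth muscle myosin, at 12.2 ± 3.44, *Sox17* at 6.16 ± 1.15 and *Cnn1*, which encodes a smooth muscle actin-binding protein, at 2.30 ± 0.953. Of the 34 pairs of neighbours in the order, 5 were apart beyond the range of their libraries. The order depends on the length used. *Aqp1* had more WT footprint CPM than *Acta2*, 509 against 444 on average, and a shorter coding sequence, 810 against 1134 bases. Per coding length *Aqp1* therefore stands above *Acta2*. *Rgs5*, with 313 CPM on average, has 546 coding bases and 3473 of 3′ UTR, so its place is lower by transcript length.

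The order was another one in mRNA. The secreted protein gene *Egfl7* was first, at 281 ± 26.5 on the per-length scale, followed by *Gpihbp1* at 211 ± 47.9, *Acta2* at 76.9 ± 3.17, *Ly6a* at 74.3 ± 29.8 and *Ly6c1* at 51.97 ± 18.8. *Cdh5*, among the 5 highest in footprints per transcript length, was at 2.01 ± 0.309 in mRNA. *Cav1*, which stood above it in footprints, was at 0.864 ± 0.940 in mRNA. *Ets1* was last in mRNA, at 0.201 ± 0.139. Only 2 of the 34 pairs of neighbours were apart in mRNA, so most of the order is within the spread of the libraries. The spread itself was wider in mRNA: the median coefficient of variation over the 35 members was 27.8% in WT and 22.6% in KO, against 14.03% and 11.5% in footprints.

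**Figure D1:**
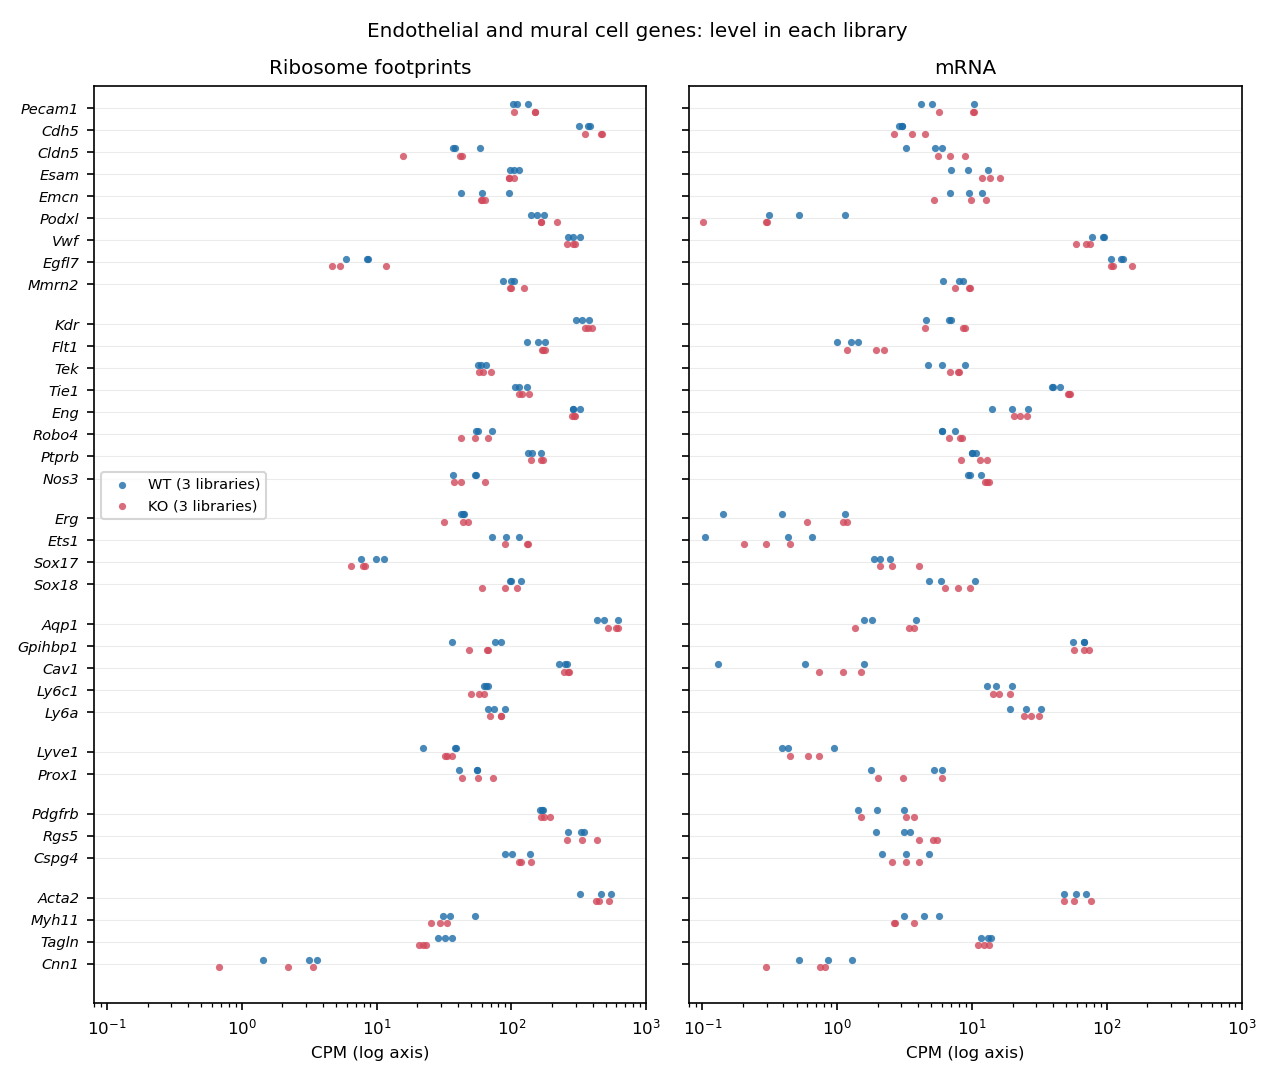
Level of each of the 35 genes in each library, as CPM on a log axis, with footprints on the left and mRNA on the right. Genes are grouped by role in the order surface and junction, receptors and signalling, transcription factors, capillary, lymphatic, pericyte and smooth muscle. Each point is 1 library, blue for WT and red for KO. The points of the genotypes lie together in nearly every row, while *Egfl7* sits low in footprints and high in mRNA and *Cav1*, *Podxl* and *Ets1* sit the other way round.

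The first comparison asked how the footprints of each gene compared with its mRNA within a genotype, relative to the centre of all genes as set by TMM scaling over both assays. Most vascular genes stood higher in footprints than in mRNA, as did the fibroblast markers given further on, and a few vascular genes stood far lower. In WT, 29 of the 34 members tested had an adjusted p below 0.05 (edgeR quasi-likelihood test with Benjamini-Hochberg adjustment), of which 24 were higher in footprints and 5 lower. Of all 10961 genes tested, 74.5% passed, 40.9% being higher and 33.6% lower. The log2 ratio was above 0 in 27 of the 34 members and in 54.6% of all genes. In KO, 29 of 34 passed, again 24 higher and 5 lower, against 76.3% of 11181 genes, 41.5% being higher and 34.8% lower, and the ratio was above 0 in 25 members and in 54.2% of all genes. The median log2 ratio of the members was 1.51 in WT and 1.41 in KO, and that of all genes was 0.28 and 0.25. Of the calls, 28 were made in both genotypes, 96.6% of each list, and all 28 had the same direction. *Erg*, *Ets1*, *Podxl* and *Lyve1* were too low in mRNA to pass its own filter and entered this comparison through their footprints, so that a higher level in footprints was fixed for them. Over the 30 members that passed in mRNA as well, a restriction chosen after the values were seen, 25 were called in each genotype, 20 higher and 5 lower. Of all 8241 such genes in WT, 72.9% were called, 28.3% higher and 44.6% lower, and in KO 75.8% of 8285, 29.2% higher and 46.7% lower. The median log2 ratio was then 1.20 in WT and 1.08 in KO for the members, and -0.46 and -0.45 for all such genes. The mRNA filter took both genotypes together. *Cav1* had 4, 1 and 15 mRNA counts in WT and 5, 10 and 11 in KO. *Flt1* had 7, 11 and 12 in WT and 8, 13 and 22 in KO. Within each genotype both genes also entered through their footprints. So did *Aqp1*, with 11, 14 and 37 mRNA counts in WT and 23, 9 and 37 in KO. *Pdgfrb* did as well, with 10, 24 and 19 in WT and 25, 10 and 32 in KO. The 20 higher calls thus include calls whose direction was fixed. *Cldn5* passed in WT alone and *Emcn* in KO alone, and this difference between genotypes is tested by the interaction given below. *Ly6c1*, *Nos3*, *Sox17* and *Vwf* passed in neither, and *Cnn1* had too few counts to be tested.

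The CPM values given here were scaled within each assay, and the ratio of footprint to mRNA CPM stands above the fitted log2 ratio by 2.12 in WT and 2.10 in KO. A ratio therefore places a gene against the other genes and is not a number of ribosomes per mRNA.

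*Cav1* (chr6:17306335-17341324), which forms the caveolae of endothelial cells, had 258, 227 and 248 CPM in the WT footprint libraries and 0.573, 0.130 and 1.57 CPM in the WT mRNA libraries. Its log2 ratio was 6.11 ± 0.40 (SE) in WT and 5.76 ± 0.25 in KO. Every footprint library was far above every mRNA library in CPM, and the mRNA rests on only 20 counts in the 3 WT libraries together. Its direction was fixed by entry through footprints, so no p is given for it.

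*Podxl* (chr6:31519488-31563981, minus strand), a sialomucin of the luminal surface, had 174, 139 and 154 CPM in WT footprints and 1.15, 0.519 and 0.314 in WT mRNA. The mRNA rests on 15 counts in WT, with an exact Poisson 95% interval of 8.40 to 24.7, and on 5 in KO, with an interval of 1.62 to 11.7. The fitted log2 ratio of 5.82 ± 0.34 in WT and 7.59 ± 0.33 in KO depends on those few counts. *Ets1* (chr9:32696022-32757820), a transcription factor, was alike, at 113, 71.9 and 90.7 CPM in WT footprints and 0.430, 0.649 and 0.105 in WT mRNA. Its mRNA had 9 counts in WT (4.12 to 17.1) and 7 in KO (2.81 to 14.4). The log2 ratio of *Ets1* was 5.79 ± 0.41 in WT and 6.48 ± 0.34 in KO. *Podxl* and *Ets1* failed the mRNA filter and entered through footprints, which fixed their direction, so no p is given for them.

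*Aqp1* (chr6:55336432-55348555) had 614, 486 and 428 CPM in WT footprints against 1.58, 1.82 and 3.88 in WT mRNA. The log2 ratio was 5.55 ± 0.32 in WT and 5.54 ± 0.27 in KO. *Flt1* (chr5:147561604-147726011, minus strand), a VEGF receptor that also acts as a decoy, had 176, 130 and 158 CPM in WT footprints against 1.00, 1.43 and 1.26 in mRNA. Its log2 ratio was 4.84 ± 0.27 in WT and 4.46 ± 0.23 in KO. The ratios of *Cav1*, *Aqp1* and *Flt1* were high in both genotypes. Entry through footprints had fixed the direction for all of them in both genotypes, so no p is given for them.

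*Egfl7* (chr2:26586630-26592681), whose product is secreted into the matrix around vessels, was the lowest member by a wide margin. It had 127, 133 and 107 CPM in WT mRNA and 5.97, 8.70 and 8.46 CPM in WT footprints. KO mRNA had 107, 154 and 112 CPM and KO footprints 5.39, 4.69 and 11.7. Summed over the WT libraries this was 2928 mRNA counts and 102 footprint counts. The log2 ratio was -6.10 ± 0.26 in WT (adjusted p = 2.5e-09) and -6.23 ± 0.32 in KO (adjusted p = 3.8e-10).

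*Gpihbp1* (chr15:75596630-75598213) followed, with 56.5, 67.9 and 67.7 CPM in WT mRNA and 36.2, 75.9 and 84.4 in WT footprints. These CPM overlap, yet relative to the centre of all genes the log2 ratio was -2.08 ± 0.28 in WT (adjusted p = 1.1e-05) and -2.22 ± 0.19 in KO (adjusted p = 5.2e-08). *Tagln*, which encodes transgelin of the smooth muscle cytoskeleton, had a log2 ratio of -0.79 ± 0.22 in WT (adjusted p = 0.0045) and -1.24 ± 0.19 in KO (adjusted p = 3.0e-05). *Tie1*, an orphan receptor that pairs with *Tek*, had -0.62 ± 0.19 (adjusted p = 0.0081) and -0.86 ± 0.16 (adjusted p = 0.00018). *Ly6a* had -0.54 ± 0.23 (adjusted p = 0.045) and -0.58 ± 0.17 (adjusted p = 0.0063). The WT call of *Ly6a* did not hold under 7 alternatives, with adjusted p up to 0.14 without the third WT mRNA library.

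By role, the 3 pericyte genes were all higher in footprints in both genotypes, with WT log2 ratios of 2.89 (*Cspg4*), 4.14 (*Pdgfrb*) and 4.66 (*Rgs5*). Among the receptors and signalling genes 6 of 8 were higher and 1 lower in each genotype, and *Nos3*, the endothelial nitric oxide synthase, passed in neither. Of the 9 surface and junction genes 6 were higher and 1 lower in each. Over all genes tested, 40.9% were called higher and 33.6% lower in WT, and 41.5% and 34.8% in KO. The 5 capillary genes split, with *Aqp1* and *Cav1* higher, *Gpihbp1* and *Ly6a* lower and *Ly6c1* without a call. Of the 4 transcription factors, *Erg*, *Ets1* and *Sox18* were higher, while *Sox17* was at 0.05 ± 0.38 in WT. The lymphatic genes *Lyve1*, a hyaluronan receptor, and *Prox1*, the lymphatic transcription factor, were both higher, at 3.62 ± 0.42 and 1.46 ± 0.35 in WT. The cells from which the reads of *Lyve1* and *Prox1* came were not tested. Among the smooth muscle genes *Acta2* (0.79 ± 0.23 in WT) and *Myh11* (1.06 ± 0.30) were higher and *Tagln* lower. Entry through footprints fixed the higher call for *Podxl*, *Erg*, *Ets1*, *Lyve1*, *Cav1*, *Flt1*, *Aqp1* and the pericyte gene *Pdgfrb*, in both genotypes.

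The ratio moved with the length of the 3′ UTR of the listed transcript. Over the 9 tested members with at most 500 bases of 3′ UTR the median log2 ratio in WT was -0.41, and 2 were called higher and 4 lower. Over the 11 members above 500 and up to 1000 bases it was 1.07, over the 8 above 1000 and up to 2000 it was 4.09 and over the 6 above 2000 it was 4.75. All 8 and all 6 members of the latter bins were called higher in both genotypes. Entry through footprints had fixed this for *Erg*, *Lyve1*, *Cav1*, *Aqp1*, *Pdgfrb*, *Ets1*, *Podxl* and *Flt1*. Over all genes tested the same medians were -1.22, 0.32, 1.22 and 1.71, in the same order, and 12.1%, 39.1%, 55.6% and 61.3% of the genes in these bins were called higher in WT. Without the 4 members that failed the mRNA filter, the members' WT medians in the longer bins were 4.46 over 6 genes and 3.19 over 4 genes. The first 2 bins were as before. Over all genes that passed in mRNA the WT medians were -1.38, 0.06, 0.38 and 0.31, so in WT the longest bin did not stand above the one before it, in the members or over all genes.

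Across the 34 members, Spearman's rho between the ratio and 3′ UTR length was 0.81 in WT and 0.84 in KO, and Pearson's r with log10 length was 0.73 and 0.74. Across all genes rho was 0.47 and 0.48. Over the 30 members that passed in mRNA as well, rho was 0.78 in WT and 0.81 in KO, and over all such genes 0.39 and 0.40. With coding length rho was 0.12 and 0.17 over the members. These are correlations across genes, which share their libraries and are not independent replicates, and they are given as a description. The region over which mRNA reads were counted is not given in the sources used here, and the part of transcript structure in the ratio was not tested. Of the genes at the ends, *Egfl7* has 241 bases of 3′ UTR and *Gpihbp1* 89, while *Cav1* has 1870, *Ets1* 3395 and *Podxl* 3534. *Ptprb*, an endothelial phosphatase with 5660 bases, and *Prox1* with 5185 were exceptions at the long end, with WT ratios of 1.72 and 1.46.

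**Figure D2:**
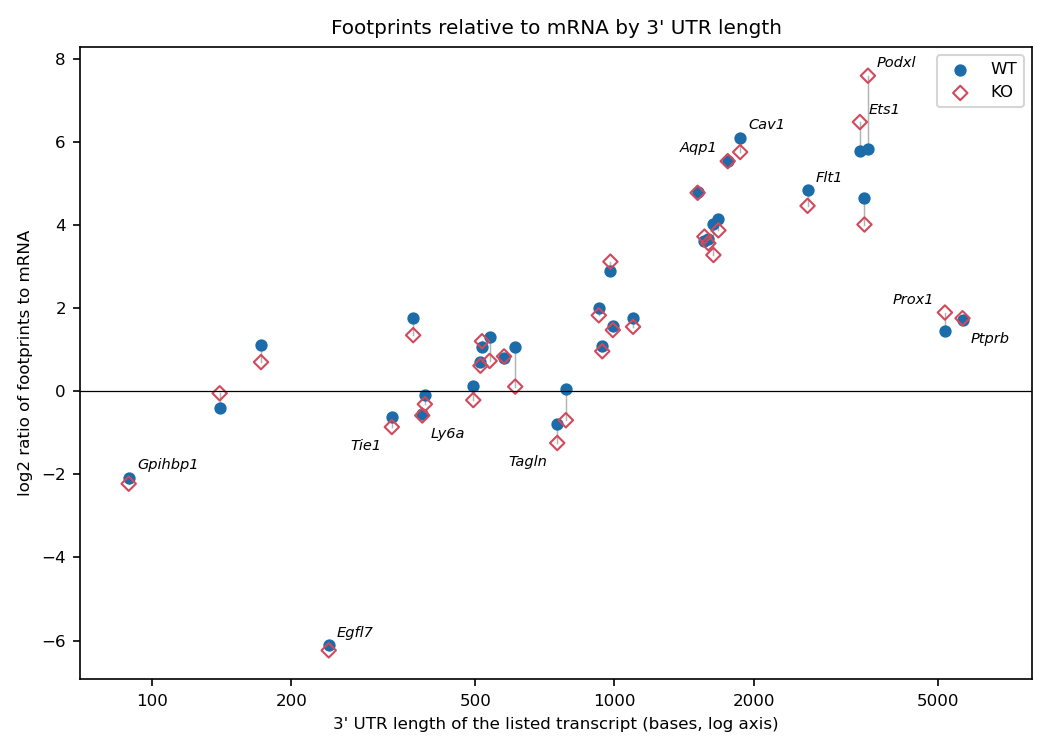
Log2 ratio of footprints to mRNA from the edgeR fit (vertical) against the 3′ UTR length of the listed transcript in bases (horizontal, log axis) for the 34 genes tested. Filled blue circles are WT and open red diamonds KO, joined for each gene by a grey line. The WT ratios run from -6.10 to 1.76 up to 500 bases and from 1.46 to 6.11 above 1000 bases, with *Ptprb* and *Prox1* below 2 at the far right.

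The second comparison asked whether the vascular genes had other footprint levels without *Rpl3l*. None of the 35 members passed in footprints with edgeR's quasi-likelihood test, and DESeq2 called none either. One member, *Tagln*, had an unadjusted p below 0.05. Over all genes, 0.00897% of 11153 passed, which is *Rpl3l* alone, and 5.96% had an unadjusted p below 0.05. The members' log2 fold changes, KO against WT, ran from -0.54 to 0.35 with a median of 0.05, where the median of all genes was 0.00. There were 19 members above 0 and 16 below, and 50.2% of all genes were above 0. The 95% interval of the fold change stayed within a 2-fold change in either direction for 31 of the 35. It reached further for *Cldn5*, *Egfl7*, *Sox17* and *Cnn1*.

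Groups of 3 libraries did not overlap in footprints for *Tagln* and *Ly6c1*, both lower in KO, and no member was higher in KO without overlap. Over all genes, 5.77% were lower and 6.27% higher without overlap, so 2 of 35 lower is at the background. *Tagln* had 31.9, 36.4 and 28.6 CPM in the WT libraries against 20.8, 23.3 and 22.2 in the KO libraries, all of them lower. The log2 fold change was -0.54 ± 0.20 (SE, unadjusted p = 0.016, adjusted p = 0.83). *Ly6c1* had 62.5, 66.9 and 64.3 CPM in WT and 62.3, 49.7 and 57.0 in KO, with the first KO library just under the lowest WT one.

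The other genes with the smallest p among members with at least 50 counts on average were mixed in role and direction. *Myh11* had 31.3, 53.2 and 35.1 CPM in WT footprints and 25.3, 33.4 and 29.3 in KO. The groups overlapped in 1 KO library, and the log2 fold change was -0.44 ± 0.22 (adjusted p = 0.83). *Sox18*, a regulator of vessel and lymphatic development, had 99.8, 117 and 98.3 CPM in WT and 110, 60.3 and 88.9 in KO, with the second KO library lowest (-0.28 ± 0.19, adjusted p = 0.86).

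On the other side stood 3 endothelial genes. *Ets1* had 113, 71.9 and 90.7 CPM in WT footprints and 131, 89.0 and 134 in KO, a log2 fold change of 0.35 ± 0.19 (adjusted p = 0.83). *Cdh5* had 382, 316 and 371 CPM in WT and 352, 458 and 467 in KO (0.26 ± 0.14, adjusted p = 0.83). *Podxl* had 174, 139 and 154 CPM in WT and 219, 165 and 166 in KO (0.24 ± 0.15, adjusted p = 0.85). For all 3, at least 1 KO library lay within the range of WT.

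By role, the 8 receptors and signalling genes had log2 fold changes in footprints between -0.16 and 0.15. The 3 pericyte genes were between 0.09 and 0.18, both lymphatic genes between 0.05 and 0.17, and the 4 smooth muscle genes had a median of -0.43, *Acta2* being at 0.07 ± 0.17. *Acta2* had 550, 461 and 320 CPM in WT footprints and 427, 443 and 526 in KO, so its WT libraries spanned its KO libraries.

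Some other genes, given as examples and not for their whole role, lay close between genotypes. The surface and junction genes as a group ran from -0.42 to 0.26. The junction gene *Cldn5* lay less close, with 58.2, 38.2 and 37.0 CPM in WT footprints and 41.2, 15.7 and 43.2 in KO. *Kdr*, the main VEGF receptor, had 377, 300 and 332 CPM in WT footprints and 372, 350 and 396 in KO (0.15 ± 0.13). *Eng* had 286, 320 and 284 CPM in WT and 289, 280 and 294 in KO (-0.04 ± 0.12). *Tek* had 59.9, 56.9 and 64.5 CPM in WT and 57.8, 61.9 and 70.6 in KO (0.07 ± 0.16). Each of these receptors had KO libraries within the range of its WT libraries. *Pecam1*, an adhesion molecule of endothelial junctions, had 103, 109 and 132 CPM in WT and 105, 149 and 149 in KO (0.22 ± 0.17), the first KO library lying among those of WT. *Pdgfrb*, the receptor through which pericytes are recruited, had 164, 168 and 172 CPM in WT and 174, 167 and 195 in KO (0.09 ± 0.13). Among the lymphatic genes, *Lyve1* had 22.2, 38.7 and 38.3 CPM in WT and 36.5, 32.4 and 33.5 in KO (0.05 ± 0.22), so the first WT library was the lowest of the 6 and the others lay close together.

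**Figure D3:**
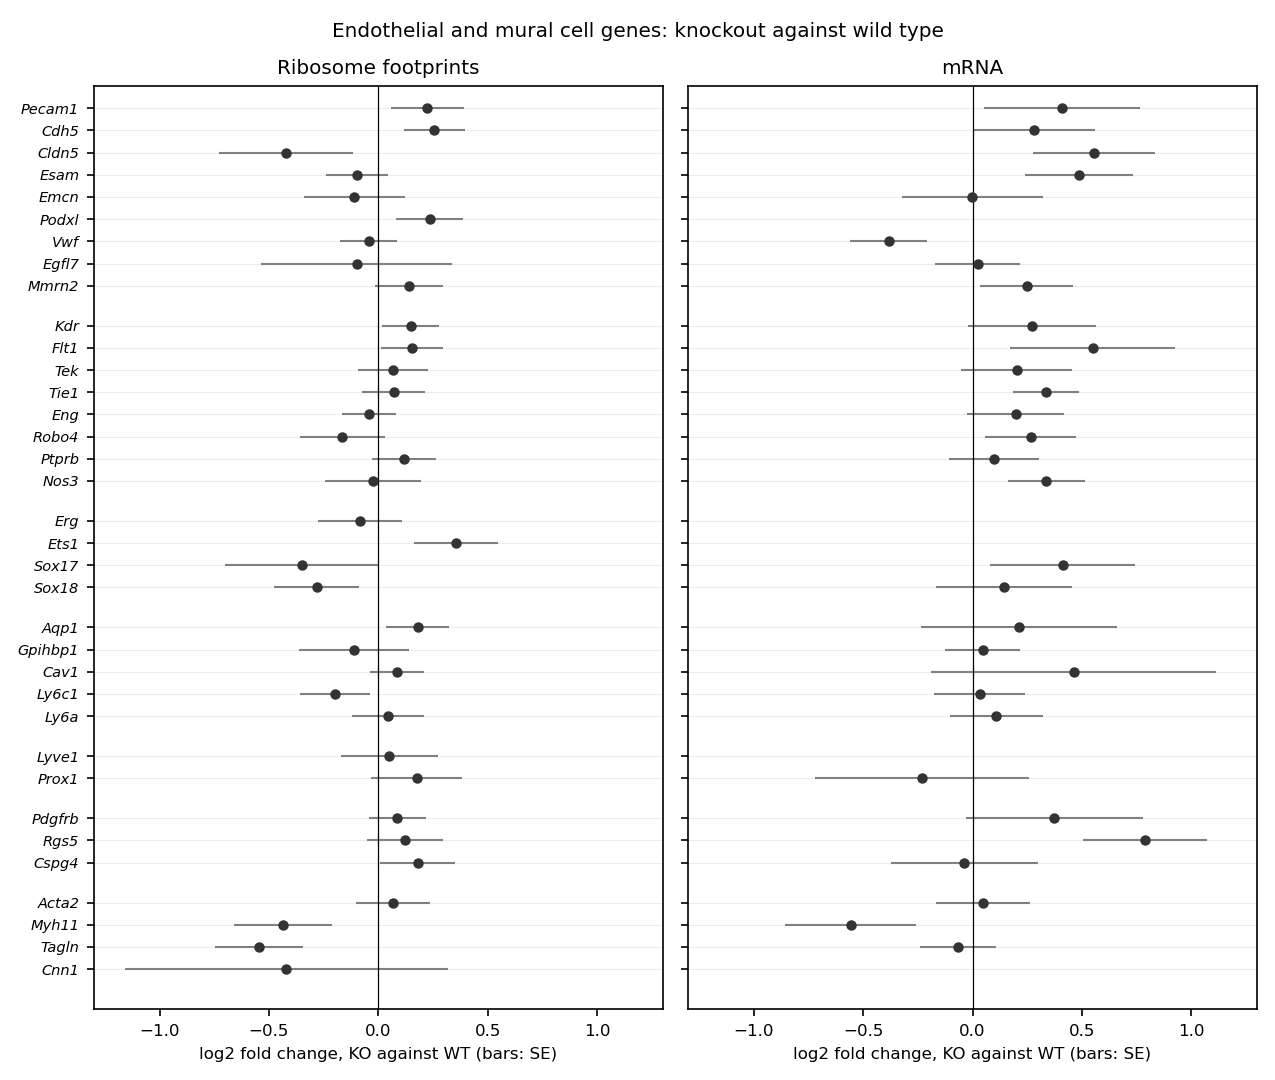
Log2 fold change, KO against WT, of each gene in footprints (left) and mRNA (right), with bars of 1 SE from the edgeR fit. Rows without a point in the mRNA panel are the 5 genes left out by the filter on low counts. Footprint values run from -0.54 to 0.35, with an SE of 0.17 at the median and 0.74 at most. In mRNA 24 of the 30 points are above 0.

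The third comparison put the same question to mRNA. No member of 30 tested passed with edgeR's quasi-likelihood test, and DESeq2 called none of the 35. Over all genes, 0.0119% of 8379 passed, again *Rpl3l* alone, and 2.54% had an unadjusted p below 0.05. The median log2 fold change of the members was 0.21 and that of all genes was -0.01. The members' median was 0.12 without the second WT library, and 0.31 at most, without the third. Above 0 were 24 of 30 members, where 49.1% of all genes were above 0. Among the endothelial and lymphatic genes 21 of 24 were above 0, with a median of 0.23, and among the mural genes 3 of 6. The 95% interval stayed within a 2-fold change for 19 of the 30. These shares are a description of genes that share their libraries.

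The same lean was seen by library. Over the 24 endothelial and lymphatic genes, the median log2 deviation of a library from the mean of the 6 mRNA libraries was -0.28, -0.22 and 0.01 in WT and 0.07, 0.12 and 0.24 in KO. The lowest were the first and second WT libraries. Over the 28 such genes measured in footprints, the WT libraries had medians of 0.04, -0.05 and -0.04, against 0.05, -0.08 and 0.10 for KO. The mural genes deviated from library to library with no order by genotype: in mRNA from -0.35 in the second KO library to 0.32 in the third, and in footprints from -0.34 in the first KO library to 0.24 in the second WT library.

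**Figure D4:**
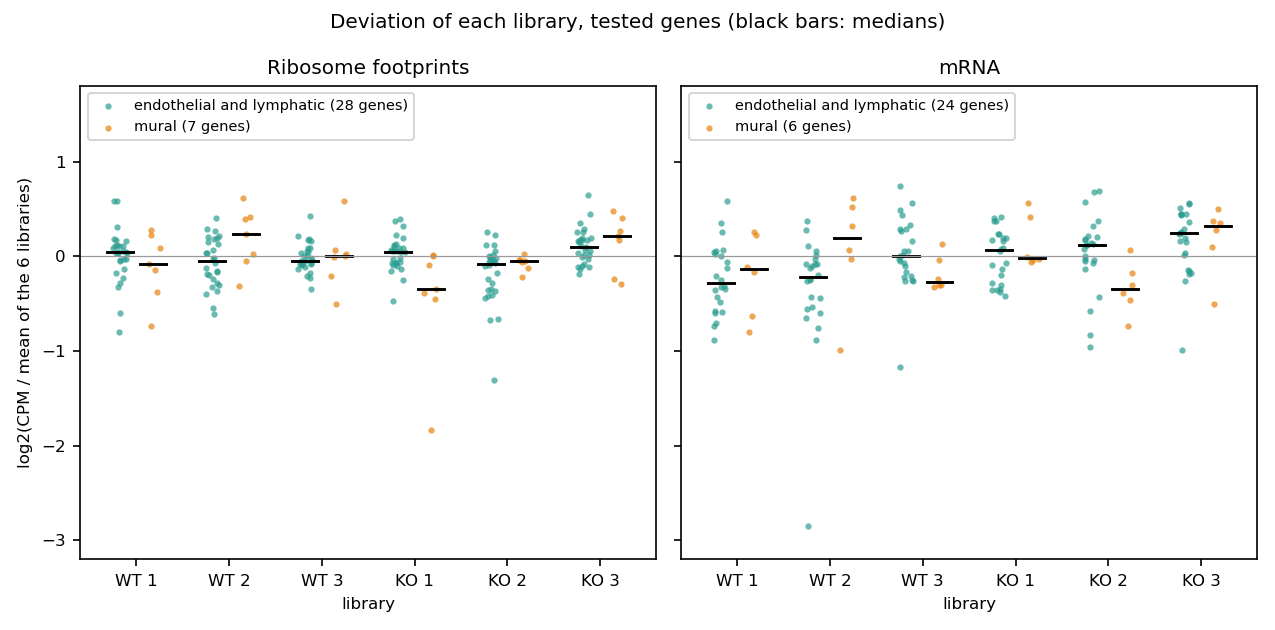
Log2 of each gene's CPM over its mean of the 6 libraries of an assay, by library, for footprints (left) and mRNA (right). Green points are endothelial and lymphatic genes, orange points are mural genes, and black bars are medians. The endothelial medians in mRNA run from -0.28 to 0.01 in WT and from 0.07 to 0.24 in KO, while in footprints they stay between -0.08 and 0.10.

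*Tie1* had 44.7, 39.2 and 40.2 CPM in WT mRNA and 53.3, 51.2 and 52.04 in KO, without overlap, and the log2 fold change was 0.33 ± 0.15 (SE, unadjusted p = 0.051, adjusted p = 0.999). *Nos3* had 9.32, 11.7 and 9.74 CPM in WT and 13.0, 12.6 and 13.3 in KO, also without overlap (0.34 ± 0.18, adjusted p = 0.999). *Vwf*, the carrier of factor VIII and a platelet tether made by endothelium, went the other way, at 93.9, 95.2 and 77.1 CPM in WT and 58.8, 74.6 and 70.6 in KO (-0.38 ± 0.17, adjusted p = 0.999). Its groups did not overlap either. In footprints none of these 3 genes had groups that stood apart, and *Vwf* was at 261, 324 and 285 CPM in WT and 295, 288 and 260 in KO.

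*Esam*, a junctional adhesion protein, had 9.32, 7.01 and 13.2 CPM in WT mRNA and 13.6, 11.8 and 16.1 in KO (0.49 ± 0.25, adjusted p = 0.999). *Robo4*, an endothelial guidance receptor, had 6.02, 5.97 and 7.44 CPM in WT and 6.80, 8.09 and 8.504 in KO (0.27 ± 0.21, adjusted p = 0.999). The matrix protein gene *Mmrn2* had 8.60, 6.10 and 7.96 CPM in WT and 7.53, 9.59 and 9.72 in KO (0.25 ± 0.21, adjusted p = 0.999). In each of these the groups overlapped. *Rgs5*, named here after its values were seen because it had the only unadjusted p below 0.05 among the members, was at 3.44, 1.95 and 3.14 CPM in WT and 5.17, 4.04 and 5.47 in KO (0.79 ± 0.28, unadjusted p = 0.019, adjusted p = 0.999). Its groups did not overlap in mRNA. In footprints, where it had far more counts, *Rgs5* was at 348, 264 and 327 CPM in WT and 257, 332 and 433 in KO, with a log2 fold change of 0.12 ± 0.17. The groups without overlap were 3 of 30 members higher in KO and 1 lower, and over all genes 4.14% were higher and 3.19% lower. *Podxl*, which the filter left out, was at 1.15, 0.519 and 0.314 CPM in WT mRNA and 0.295, 0.300 and 0.101 in KO, at or under the floor in 4 of 6 libraries, and no fold is given.

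The last comparison tested the interaction of assay and genotype, which is the change in translational efficiency (TE), the footprint level of a gene relative to its mRNA. No member of 30 passed with edgeR's quasi-likelihood test, none had an unadjusted p below 0.05, and DESeq2 called none, with 1 unadjusted p below 0.05. Over all genes, 0.0% of 8044 passed and 3.73% had an unadjusted p below 0.05. The members' median log2 change in TE was -0.15 and that of all genes 0.01. There were 24 members below 0 and 6 above, with 51.7% of all genes above 0. TE is made from the same libraries as the footprint and mRNA comparisons, so the lean below 0 is not independent of the lean above 0 in mRNA. The 95% interval stayed within a 2-fold change for 16 of 30 members. It reached further for the other 14, among them *Cldn5* and *Emcn*. The fitted log2 ratio of *Emcn* was 0.70 in WT and 0.61 in KO.

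*Cldn5*, the main claudin of endothelial tight junctions, had the lowest value. It had 58.2, 38.2 and 37.0 CPM in WT footprints and 41.2, 15.7 and 43.2 in KO, and 6.02, 3.25 and 5.34 CPM in WT mRNA and 5.61, 6.89 and 8.81 in KO. The second KO footprint library stood lowest. The log2 change in TE was -0.96 ± 0.49 (adjusted p = 1.00), with a 95% interval from -2.00 to 0.08 that includes 0. Without the second KO footprint library the value was -0.62. *Esam* was at -0.56 ± 0.28, *Rgs5* at -0.65 ± 0.35, *Tagln* at -0.45 ± 0.25, *Robo4* at -0.41 ± 0.30 and *Vwf* at 0.36 ± 0.23 (adjusted p = 1.00 for all).

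The ligands and partners of these genes were examined as 2 further lists. The vascular list held VEGF and apelin ligands, Notch pathway genes and genes of endothelial lipid uptake, 35 of 36 being present. No gene of it passed in KO against WT with edgeR's quasi-likelihood test in footprints (34 tested), mRNA (23 tested) or TE (23 tested). Their median log2 fold change in footprints was 0.05, as in the members. *Cd36*, the fatty acid transporter of capillaries and cardiomyocytes, had the smallest unadjusted p in footprints, with 1483, 1187 and 1380 CPM in WT and 1557, 2134 and 1789 in KO. All KO libraries were above all WT libraries (0.44 ± 0.13, unadjusted p = 0.0046, adjusted p = 0.83). *Angpt2*, which destabilises vessels through *Tek*, was at 3.70, 2.64 and 2.75 CPM in WT footprints and 4.85, 7.04 and 9.85 in KO (1.24 ± 0.49, unadjusted p = 0.024, adjusted p = 0.83). *Hey1*, a Notch target, was at 20.6, 22.4 and 16.7 CPM in WT and 16.4, 8.80 and 11.1 in KO (-0.71 ± 0.29, adjusted p = 0.83). These 3 had the only unadjusted p below 0.05 of the list in footprints.

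In the list of 18 mural partners none passed in footprints (18 tested), mRNA (17 tested) or TE (17 tested). In WT footprints *Tpm1* was at 10541, 10247 and 11353 CPM and *Des* at 2457, 3092 and 2142, far above *Acta2*. The cells these reads came from were not tested, so counts over this list need not describe mural cells. *Mylk*, the myosin light chain kinase of smooth muscle, was at 43.4, 55.1 and 44.2 CPM in WT footprints and 34.4, 35.5 and 33.7 in KO, lower in every KO library (-0.46 ± 0.18, unadjusted p = 0.021, adjusted p = 0.83). *Smoc2*, which encodes a secreted matrix protein, was at 74.1, 80.1 and 79.1 CPM in WT footprints and 76.5, 110 and 119 in KO (0.39 ± 0.17, unadjusted p = 0.041, adjusted p = 0.83), the opposite direction. Of this list, 12 of 18 were below 0 in footprints. In mRNA 1 mural partner had an unadjusted p below 0.05, in footprints 2 and in TE 1, and in the vascular list 2 genes did so in mRNA and 1 in TE. Over all genes these shares were 2.54% in mRNA, 5.96% in footprints and 3.73% in TE. DESeq2 called none of either list in any of these comparisons.

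In footprints against mRNA in WT, 31 of 34 vascular partners passed, 24 higher and 7 lower, and 15 of 18 mural partners passed, 7 higher and 8 lower. Over all genes 74.5% passed, 40.9% higher and 33.6% lower, so the mural partners were near the background. Of the vascular partners only 23 had passed the filter in mRNA, and the others entered through their footprints. A higher call among those others was therefore fixed, and no count of calls over the 23 alone is given. *Apln*, which encodes the ligand apelin, had no count in any mRNA library, and the mRNA of thrombomodulin (*Thbd*) rests on 0, 0 and 7 counts in WT and that of the apelin receptor *Aplnr* on 2, 2 and 5, so no ratio is given for them. The hypoxia factor *Epas1*, with 22 to 39 mRNA counts per WT library, had a log2 ratio of 5.12 ± 0.24. At the other end were the VEGF ligand *Vegfb* at -4.34 ± 0.22 and the pericyte gene *Higd1b* at -4.59 ± 0.38. The pericyte genes were thus found at both ends, *Rgs5* high and *Higd1b* low. *Pdgfrb* was also high, with its direction fixed by entry through footprints.

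Markers of other cell types were summed beside these results. The 26 endothelial genes summed to 461 to 484 CPM in WT mRNA and 473 to 518 in KO, and to 3523 to 3915 in WT footprints and 3703 to 4098 in KO. Smooth muscle genes summed to 388 to 615 CPM in WT footprints and 474 to 581 in KO. The 8 cardiomyocyte genes summed to 41486 to 55662 CPM in WT mRNA and 40389 to 46304 in KO, with 7 of 8 log2 fold changes below 0 and a median of -0.17. In footprints they summed to 100005 to 110690 CPM in WT and 100221 to 106814 in KO, so the defining markers of heart muscle were present in every library. The 4 atrial genes summed to 1681 to 2615 CPM in WT mRNA and 2053 to 4136 in KO, with 4 of 4 log2 fold changes above 0, a median of 0.63 and 3 unadjusted p below 0.05. In footprints they summed to 2382 to 3364 CPM in WT and 2681 to 3370 in KO, again 4 of 4 above 0, with a median of 0.27. The 5 red blood cell genes summed to 1928 to 4317 CPM in WT mRNA and 1263 to 5270 in KO, and to 353 to 1502 in WT footprints and 661 to 1572 in KO. The 5 adipocyte genes ran from 177 to 859 CPM in WT footprints and 258 to 611 in KO. The 8 fibroblast genes were at 282 to 345 CPM in WT mRNA and 322 to 376 in KO. In footprints they were at 3248 to 3820 in WT and 3380 to 4226 in KO, with 7 of 8 log2 fold changes above 0 in mRNA and 6 of 8 in footprints. In footprints against mRNA, 7 of these 8 were called higher and 0 lower in each genotype, with medians of 1.97 in WT and 2.13 in KO. A high ratio was thus not particular to the vascular genes. In WT 3 of the 4 atrial genes and all 5 red blood cell genes were called lower. The shares over all genes tested were 40.9% higher and 33.6% lower in WT, and 41.5% and 34.8% in KO. The 8 macrophage and immune genes were at 874 to 962 CPM in WT footprints and 922 to 1044 in KO, and the 4 mesothelial genes at 117 to 141 and 80.9 to 127. The part of any of these in the vascular values was not tested.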

How the data were processed

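The authors deposited raw counts, whole numbers per transcript name, 1 table per library. Reads were handled with cutadapt 1.18 and Bowtie2 2.4.2, per the submitters' processing notes. Genome build, counted region and treatment of reads matching several genes are not given in the sources used here. Of the 21669 names, 98.9% matched GENCODE M21 (GRCm38), which may not be the authors' version. Structures and sequences came from it.

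All genes that passed filterByExpr (minimum count 10) were tested with edgeR 4.0.16 in R 4.3.3, with TMM scaling, the quasi-likelihood F test and Benjamini-Hochberg adjustment at 0.05. DESeq2 1.42.0 was an alternative. For each genotype comparison the 6 libraries of the assay were fitted, and for TE all 12. Each SE is the size of the log2 change over the root of F. The fits were tested on simulated counts. The counts of no 2 libraries of a group agreed within sampling noise (chi-square per degree of freedom 5.65 to 26.9).

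The members and lists were chosen with earlier results of these data known. Full statistics are given for the 6 members with the smallest p per genotype comparison (mean of at least 50 counts) and the 5 highest and 5 lowest called members of the assay comparison. For *Cav1*, *Podxl*, *Ets1*, *Aqp1* and *Flt1* the assay comparison is given without p. Floors and Poisson intervals cover counting error only. Counts of paralogs and overlapping genes are uncertain. A marker list and a paralog comparison are not reported here. Alternatives were another scaling, tool, filter, gene set and fit, a replicate block and each library left out.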

Additional observations from a re-analysis of the deposited data

How the results depend on the processing

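No member was called in KO against WT in footprints, mRNA or TE under any alternative run, which were another scaling, DESeq2, other filters, a reduced gene set, the replicate block, each library left out and, for footprints and mRNA, all libraries in 1 fit. Over all genes, mRNA calls went from 1 to 4 with no filter. Footprint calls went from 1 to 6 with DESeq2, 60 with no filter and 4 with the replicate block, and ran from 1 to 2 with 1 library left out, being 2 without the second or the third WT library. TE calls went from 0 to 3 with no filter. The cause was not tested. The median of the members in footprints, 0.05, was -0.0099 without the third KO library and 0.088 at most. Members called in footprints against mRNA in WT were 29, and 28 to 30 with 1 library left out. All 29 were called in the same direction by DESeq2, by median-of-ratios scaling and with the replicate block, although DESeq2 lowered the median of all genes by 0.35. A filter of 50 counts on average left 6624 genes and 5435 calls, against 8168. The named genes gave 504 values under alternatives, 497 on the same side of the threshold and 7 weaker, all 7 of *Ly6a* in WT, and none reversed. Replicate numbers did not pair the libraries by the criterion of 0.1 in every pair: correlations of deviations between same-numbered libraries were -0.20, 0.36 and 0.41 between genotypes in mRNA and 0.00 to 0.06 in footprints. Between assays of a genotype they were 0.04 to 0.11, and all 3 libraries of each genotype correlated best with their own number, a hint from the data and not the design. Low mRNA depth limits *Podxl*, *Ets1*, *Erg*, *Lyve1*, *Cav1*, *Flt1*, *Aqp1* and *Pdgfrb*.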
